A study of Mus musculus with 14 samples.

Results

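The proteasome genes described here are the 50 genes, of the 24386 listed in each of the 14 libraries, whose symbol begins with Psma, Psmb, Psmc, Psmd, Psme, Psmf or Psmg followed by a number, with pseudogenes left out. They were sorted by role into 8 core alpha genes, 7 constitutive core beta genes, 5 immunoproteasome genes, 6 ATPase genes, 3 other genes of the base, 8 genes of the lid, 7 assembly chaperones, 3 other regulators and 3 further symbols. The libraries hold poly(A) RNA of the tibialis anterior, the shin muscle that lifts the foot, from C57Bl/6 mice that were controls or were treated with follistatin. Follistatin is secreted and blocks activins and myostatin, which limit muscle growth. At day 3 there were 3 control and 4 follistatin libraries. Days 7 and 14 were combined, as the series' design does, into a later set. Its controls are 2 libraries from day 7 with 1 from day 14, and day 7 and day 14 each gave 2 of its follistatin libraries. The labels give neither the age of the mice nor the route of follistatin nor what the controls received, nor whether each replicate is an animal of its own. All p-values therefore measure only the spread between these libraries, which may be technical.

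The proteasome breaks down proteins that carry ubiquitin chains, and in muscle it degrades contractile proteins marked by muscle-specific ubiquitin ligases. Its barrel is built from rings of alpha subunits, which gate the entrance, and of beta subunits, some of which cut the protein. The regulatory particle that caps the barrel has a base, whose ATPases unfold the substrate, and a lid, which removes the ubiquitin. In immune cells, and in others under interferon, Psmb8, Psmb9 and Psmb10 replace the cutting subunits Psmb5, Psmb6 and Psmb7, and Psme1 and Psme2 form the activator PA28.

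No proteasome gene was called different between follistatin and control muscle at either time. Calls were made by limma on log2(FPKM + 1), at a Benjamini-Hochberg adjusted p under 0.05. FPKM are fragments scaled by transcript length and by the mapped fragments of the library. Genes whose mean reached 1 FPKM were tested. Of the 50 genes, 47 reached it in each set, and Psma8, Psmb11 and Psme2b did not. At day 3, 0 of 47 were called, against 1.49% of 11268 genes. In the later set, 0 of 47 were called, against 5.5% of 11047 genes. The median log2 fold change of the 47 was -0.04 at day 3, where that of all genes was 0.01, and 0.19 in the later set, where that of all genes was -0.09. The genes nearest to a call were the lid genes Psmd6 and Psmd8, the activator gene Psme4 and the ubiquitin receptor gene Psmd4.

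Counts at weaker thresholds were read against all genes. At day 3, 1 of 47 genes, Psmd6, was higher at an unadjusted limma p under 0.05, against 8.72% of all genes tested, and 6 were lower, against 6.46%, namely Psma7, Psmb9, Psmd2, Psmd4, Psmd7 and Psme4. Groups did not overlap for 1 gene that was higher with follistatin, against 8.31% of all genes, and for 7 that were lower, against 6.8%. Later, 7 genes were higher at an unadjusted limma p under 0.05, against 8.99% of all genes, namely Psma4, Psmb6, Psmd14, Psmd6, Psmd8, Psme2 and Psmg1. A further 2 were lower, Psme4 and Psmf1, against 19.3% of all genes. Groups did not overlap for 13 genes that were higher, against 8.96% of all genes, and for 2 that were lower, against 21.5%. Rescaling each library by its median ratio moved the median of all later fold changes from -0.09 to 0.00. The share of all genes above 0 went from 39.2% to 49.8%. After it 15 proteasome genes were higher and 1 was lower at an unadjusted limma p under 0.05. The share of all genes at that p was not computed after rescaling or with a library left out. Counts from those fits are therefore not set against all genes. The counts at an unadjusted p turn on single libraries. At day 3 the lower count was 3 without control replicate 1 and 2 without control replicate 3, and the higher count was 0 without control replicate 1, 2 without control replicate 3 or follistatin replicate 1 and 3 without control replicate 2 or follistatin replicate 4. The later higher count was 3 without either day 7 control and 2 without the day 14 control. It was 6 without follistatin day 7 replicate 2 or follistatin day 14 replicate 2. Without follistatin day 7 replicate 1 it was 8, and without follistatin day 14 replicate 1 it was 9. The later lower count was 1 when any one later library other than follistatin day 7 replicate 1 was left out. In the authors' deposited table the Cuffdiff q was under 0.05 at day 3 for 0 higher proteasome genes, against 3.06% of all genes tested there, and for 1 lower, Psme4, against 3.19%. At the later times the authors' deposited table has 3 higher at that q, Psmb6, Psmd8 and Psme2, against 6.64%, and 1 lower, Psme4, against 11.2%.

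Follistatin's own gene Fst was at 1.01 to 1.42 FPKM in the day 3 controls and at 49.7 to 67.8 in the follistatin libraries. The later ranges were 0.808 to 1.17 and 367 to 1421 FPKM. The FPKM of a library summed to 364513 to 532859, and the later follistatin libraries, at 364513 to 433552, lay below the later controls, at 485755 to 510584. The number of reads is not known. At day 3 the depth relative to the first control ran from 0.683 to 1.27. Of 12 muscle fibre markers, 3 at day 3 and 10 in the later set carry the authors' mark for too many reads. Myh4 is listed at 0 in all 4 day 3 follistatin libraries, with 8989 to 10504 FPKM in the day 3 controls. In the later set 5 markers, among them Acta1 and Myh4, are listed at 0 in every library. Another 3, Ckm, Mylpf and Pvalb, are at 0 in the follistatin libraries alone, and their summed FPKM in the later controls was 35218 to 38649, which the follistatin sums therefore lack. The proteasome genes carry no such mark. In bulk tissue, fewer cells of a type and less RNA per cell cannot be told apart. One library stands apart for these genes, follistatin day 14 replicate 2. Of the 47 genes, 34 were higher there than in all 6 other libraries of the set, against 20.6% of all genes tested. The summed FPKM of 19 leukocyte markers was 370 there, 104 to 120 in the other later follistatin libraries and 61.0 to 163 in the later controls. The 163 was in control day 7 replicate 2, and the other later controls were at 61.0 and 65.7. The later medians over the 47 genes and over the main roles are therefore also given without follistatin day 14 replicate 2. So are the later values of single named genes that this library moved by more than 1.5 times.

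Sequence upstream of the transcription start is shown for 4 genes on which the comparisons turn, chosen after their values were seen. They are Psmb6 and Psmd8, higher in every later follistatin library than in the later controls, Psmd4, with the smallest day 3 p, and Psme4, with lower means in both sets. RefSeq windows of the assembly GRCm38.p6 were matched to 42 of the 50 genes. Printed are the bases that no annotated exon covers, 5′ to 3′ on the gene's strand, with motif matches in capitals. The capitals are TGACGGAGC in Psmb6, which begins 9 bases before the start, and ATTGG in Psmd4, which begins 95 bases before it, and Psmd8 and Psme4 held neither motif in these bases.
Psmb6, chr11:70525107-70525356, plus strand: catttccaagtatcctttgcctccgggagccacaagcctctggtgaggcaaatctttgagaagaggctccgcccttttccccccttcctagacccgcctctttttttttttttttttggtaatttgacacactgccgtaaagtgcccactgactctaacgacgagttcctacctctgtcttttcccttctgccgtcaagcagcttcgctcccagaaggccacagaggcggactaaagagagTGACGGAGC
Psmd4, chr3:95042615-95042864, minus strand: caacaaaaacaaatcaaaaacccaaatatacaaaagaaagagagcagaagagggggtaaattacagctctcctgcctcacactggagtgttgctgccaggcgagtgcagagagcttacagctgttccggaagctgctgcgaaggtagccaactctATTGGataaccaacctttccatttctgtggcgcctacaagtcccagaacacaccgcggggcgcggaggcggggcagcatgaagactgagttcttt
Psmd8, chr7:29180702-29180923, minus strand: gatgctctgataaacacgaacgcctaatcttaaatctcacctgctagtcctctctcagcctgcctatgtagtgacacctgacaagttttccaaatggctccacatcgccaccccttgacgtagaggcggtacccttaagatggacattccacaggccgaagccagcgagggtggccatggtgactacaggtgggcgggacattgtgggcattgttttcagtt
Psme4, chr11:30771525-30771725, plus strand: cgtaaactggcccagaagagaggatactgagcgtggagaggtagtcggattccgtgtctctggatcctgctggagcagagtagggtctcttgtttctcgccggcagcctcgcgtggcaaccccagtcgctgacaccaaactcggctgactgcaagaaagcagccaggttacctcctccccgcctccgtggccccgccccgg
The letters CCAAT, a box common in promoters that reads ATTGG on the other strand, were searched on both strands. So was TGACNNNGC, the core of the element bound by Nfe2l1 and Nfe2l2, which reads GCNNNGTCA on the other strand. CCAAT was in 15 of 45 windows of 250 bases of proteasome genes, 33.3%, and in 33.8% of 32851 windows of all genes. TGACNNNGC was in 5 of 45, 11.1%, and in 10.2% of all windows. Among the 6 windows of immunoproteasome genes, 1 held CCAAT and 0 held TGACNNNGC. A match is a description of the letters and not a bound site.

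The core barrel was described first. In the controls its 14 tested genes ranged from 46.3 FPKM for Psma5 to 300.3 FPKM for Psmb7 at day 3, and from 56.6 FPKM for Psma5 to 308 FPKM for Psmb7 in the later set. FPKM is scaled per length, so these levels can be compared between genes. Psma8, the testis form of an alpha subunit, was at most 0.15 FPKM in every library, and Psmb11, the thymus form of a beta subunit, was listed at 0 in all 7 day 3 libraries and stayed at or below 0.15 FPKM in the later ones. At day 3, 7 of the 14 core genes had a log2 fold change above 0, against 52.6% of all genes tested, and the median was -0.01. The extremes were Psma7 at -0.16 and Psma6 at 0.14. Later, 14 of 14 were above 0, against 39.2% of all genes tested, and the median was 0.22. Without follistatin day 14 replicate 2, 13 of 14 were above 0 and the median was 0.11. That library held the highest level of 13 of the 14 core genes. The later alpha genes ranged from 0.09 for Psma7, which was -0.04 without that library, to 0.32 for Psma4. The later beta genes ranged from 0.20 for Psmb2, which was 0.08 without that library, to 0.45 for Psmb6, which was 0.38.

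The 3 cutting subunits of the constitutive barrel had the following levels. Psmb5, whose site cuts after hydrophobic residues, was at 75.9, 79.0 and 73.1 FPKM in the day 3 controls and at 61.4, 66.5, 80.9 and 73.0 in the follistatin libraries. Later controls were at 123, 116 and 132 FPKM and later follistatin libraries at 161 and 121 at day 7 and at 138 and 223 at day 14. The groups overlapped in both sets, and the log2 fold changes were -0.11 ± 0.10 (SE) at day 3 and 0.34 ± 0.20 in the later set (limma, adjusted p = 0.634 and 0.294). The later value was 0.17 without follistatin day 14 replicate 2. Control levels of Psmb5 also differed between the sets, which the authors normalised apart, so no change over time is read from them. Mir686 shares 109 exon bases with Psmb5 on the same strand.

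Psmb6, whose site cuts after acidic residues, lies at chr11:70525367-70527858. It was at 112, 116 and 105 FPKM in the day 3 controls and at 100.4, 114, 126 and 106 in the follistatin libraries. Its later controls were at 106, 109.8 and 108 FPKM, and its follistatin libraries at 177 and 132 at day 7 and at 119 and 169.9 at day 14. The day 3 groups overlapped, while all 4 later follistatin libraries were above all 3 later controls. The log2 fold change was 0.01 ± 0.09 (SE) at day 3, and its sign turned under other scalings. The later value was 0.45 ± 0.16, with an unadjusted p of 0.0217 that limma's adjustment raised to 0.117. In the authors' deposited table its later log2 fold change is 0.47 with a q of 0.0409, so Cuffdiff called it and limma did not.

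Psmb7, whose site cuts after basic residues, was the most abundant of these genes. It was at 291, 316 and 293 FPKM in the day 3 controls and at 288, 300.4, 279 and 302 in the follistatin libraries. Its later controls were at 319.9, 294 and 311 FPKM, and its follistatin libraries at 348 and 327 at day 7 and at 335 and 431 at day 14. The day 3 groups overlapped and the later ones did not, with log2 fold changes of -0.04 ± 0.06 (SE) and 0.22 ± 0.12 (limma, adjusted p = 0.821 and 0.279). Without that last library the later value was 0.13. Of its exon bases, 405 also belong to Nek6 on the other strand, and reads from both cannot be told apart where strand is not stated. Psma4, an alpha ring gene, had the smallest later p of the alpha genes, with control levels of 115, 114 and 108 FPKM and follistatin levels of 129, 139, 131 and 166. These groups did not overlap, and the log2 fold change was 0.32 ± 0.12 (limma, adjusted p = 0.126). Psma4 shares 114 exon bases with AY074887 on the other strand.

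**Figure D1:**
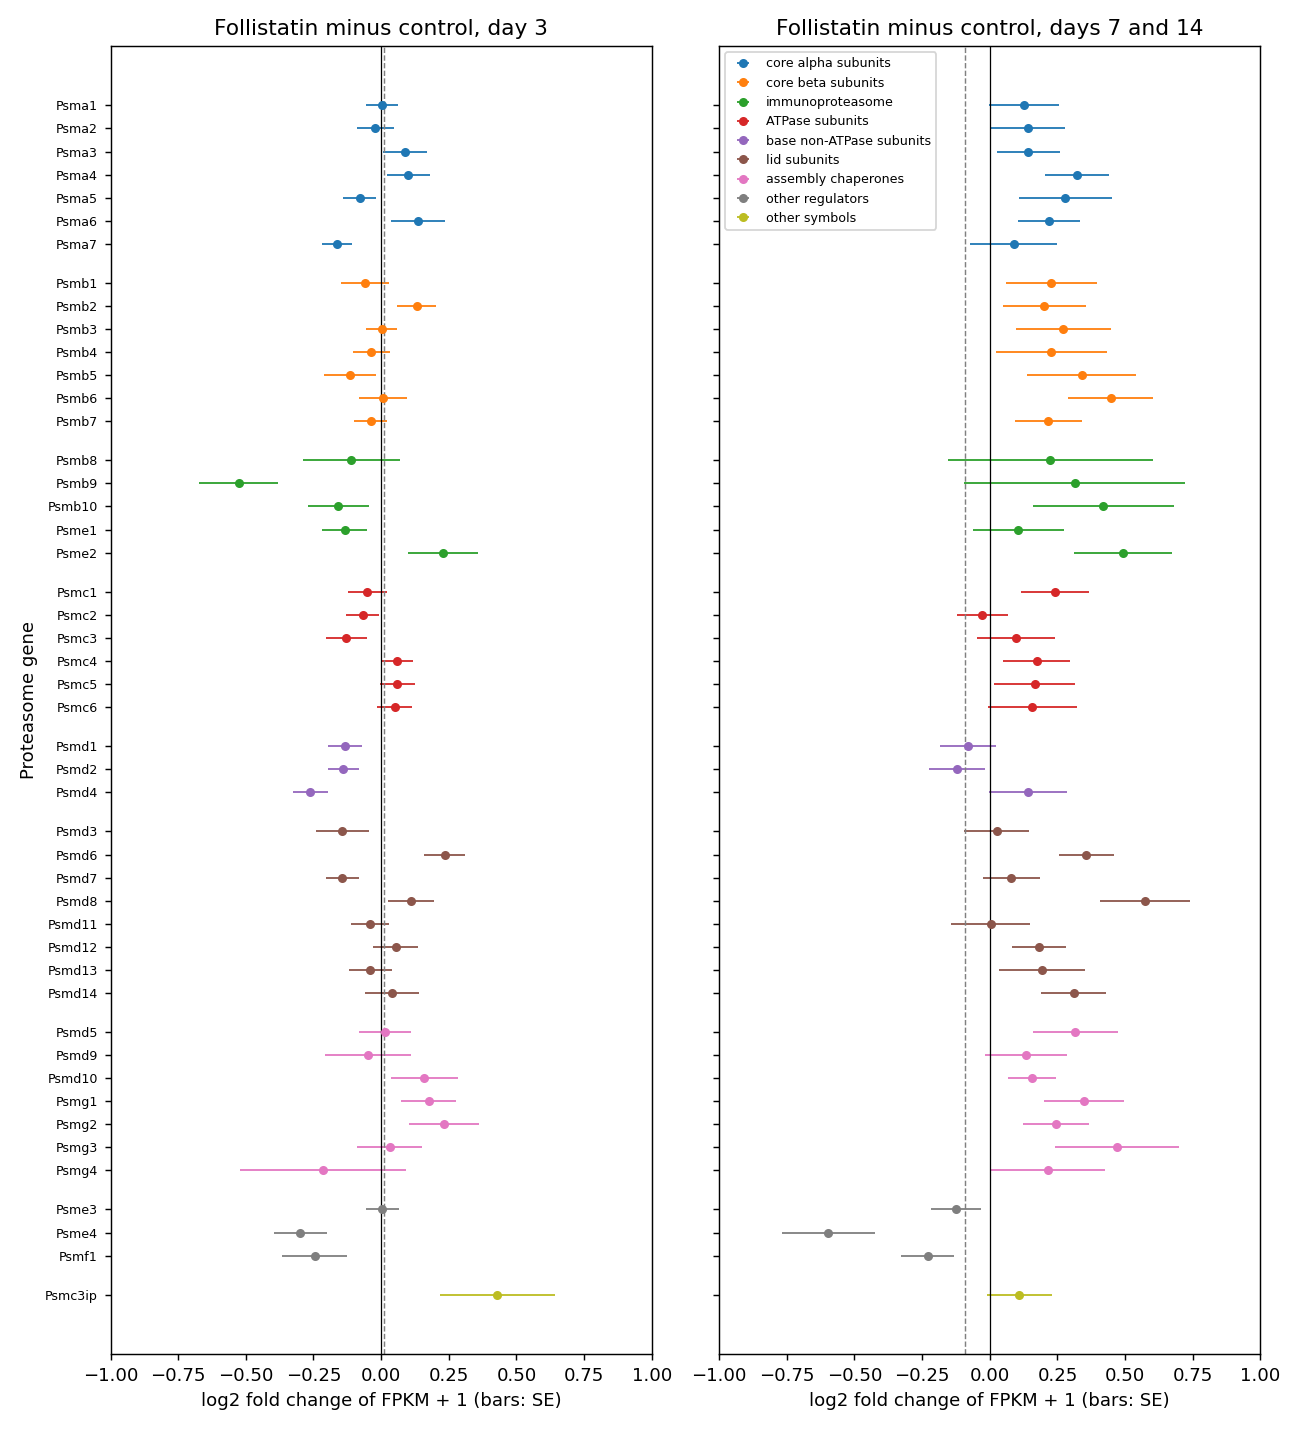
Log2 fold change of FPKM + 1, follistatin minus control, of the 47 tested proteasome genes at day 3 (left, 3 control and 4 follistatin libraries) and at days 7 and 14 (right, 3 and 4). Points are limma estimates, bars are standard errors, colours are roles, and the dashed line is the median of all genes tested, 0.01 on the left and -0.09 on the right. The day 3 points lie on both sides of 0, and 41 of 47 later points lie above it.

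Of the immunoproteasome genes, Psmb8, Psmb9 and Psmb10 were expressed far below their constitutive counterparts, and the PA28 genes were compared with each other. At day 3, 1 of the 5 had a log2 fold change above 0 and the median was -0.14. Later, 5 of 5 were above 0 with a median of 0.31, but follistatin day 14 replicate 2 held the highest level of all 5, and without it 2 of 5 were above 0 and the median was -0.01. The later median was 0.46 without control day 7 replicate 2 and 0.12 without control day 7 replicate 1. Each of the 5 is given by library.

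Psmb8, at chr17:34197721-34201454, was at 6.42, 6.44 and 7.64 FPKM in the day 3 controls and at 6.73, 4.84, 5.19 and 8.82 in the follistatin libraries. Controls read 3.46 and 7.80 FPKM at day 7 and 5.64 at day 14, and follistatin libraries 4.36 and 6.87 at day 7 and at 4.15 and 13.2 at day 14. The groups overlapped in both sets and the log2 fold changes were -0.11 ± 0.18 (SE) and 0.22 ± 0.38 (limma, adjusted p = 0.83 and 0.714). The later value turned to -0.09 without follistatin day 14 replicate 2 and to -0.04 without control day 7 replicate 1. An antisense gene, Gm20496, shares 498 of its exon bases.

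Psmb9, at chr17:34181987-34187764, was at 4.60, 6.16 and 4.15 FPKM in the day 3 controls and at 3.62, 2.60, 3.39 and 2.88 in the follistatin libraries. All 4 follistatin libraries were below all 3 controls. The mean was 4.97 ± 1.06 FPKM (SD, n = 3) in the controls and 3.12 ± 0.464 (SD, n = 4) with follistatin, and the log2 fold change was -0.53 ± 0.15 (SE), with an unadjusted p of 0.0065 and a limma adjusted p of 0.142. This was the largest decrease in mean log2 level among the 47 genes at day 3, and it did not pass the test.

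Later Psmb9 controls were at 2.29 and 5.0 FPKM at day 7 and 3.02 at day 14, and the follistatin libraries at 2.93 and 4.29 at day 7 and at 2.44 and 10.4 at day 14. The groups overlapped, with the last library far above the rest. The log2 fold change of 0.31 ± 0.41 (SE) (limma, adjusted p = 0.625) turned to -0.05 without that library. Psmb9 shares 212 exon bases with Tap1, the peptide transporter gene on the other strand. Tap1 was at 2.09 to 2.94 FPKM in the day 3 controls and at 1.53 to 2.67 with follistatin, and in the later set it was highest, at 6.08 FPKM, in the same follistatin library as Psmb9. The part of Tap1 reads in the Psmb9 values was not tested.

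Psmb10 was at 7.44, 9.24 and 7.57 FPKM in the day 3 controls and at 6.44, 8.20, 7.36 and 6.53 in the follistatin libraries. Later Psmb10 controls were at 5.92, 7.51 and 7.27 FPKM, and its follistatin libraries at 10.98 and 7.45 at day 7 and at 6.43 and 15.3 at day 14. The groups overlapped in both sets, and the log2 fold changes were -0.16 ± 0.11 (SE) and 0.42 ± 0.26 (limma, adjusted p = 0.565 and 0.316). The later value was 0.21 without follistatin day 14 replicate 2.

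Psme1, the alpha subunit of PA28, was at 48.9, 50.9 and 45.6 FPKM in the day 3 controls and at 46.6, 40.9, 48.3 and 40.9 in the follistatin libraries. Its later controls were at 42.9, 44.4 and 54.3 FPKM and its follistatin libraries at 53.5, 46.5, 41.1 and 64.1. The groups overlapped in both sets, with log2 fold changes of -0.14 ± 0.08 (SE) and 0.11 ± 0.17 (limma, adjusted p = 0.511 and 0.696), and the later value was -0.01 without follistatin day 14 replicate 2. It shares 14 exon bases with Emc9.

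Psme2, the beta subunit of PA28, was at 21.7, 33.1 and 24.8 FPKM in the day 3 controls and at 29.4, 31.9, 30.1 and 31.7 in the follistatin libraries. Its later controls were at 27.2, 24.6 and 25.7 FPKM and its follistatin libraries at 37.2 and 31.7 at day 7 and at 30.1 and 51.1 at day 14. One day 3 control was above all follistatin libraries, while the later groups did not overlap. The log2 fold change was 0.23 ± 0.13 (SE) at day 3 and 0.49 ± 0.18 in the later set (limma, adjusted p = 0.463 and 0.129), and the later value was 0.34 without follistatin day 14 replicate 2. In the authors' deposited table the later log2 fold change of Psme2 is 0.53 with a q of 0.0369.

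The share of each inducible core subunit relative to its constitutive counterpart was taken within each library, which removes the scaling of that library. Psme2 was set against Psme1, the other subunit of PA28, which it does not replace. Psmb8 stood at 9.02% ± 1.25 (SD, n = 3) of Psmb5 in the day 3 controls and at 9.19% ± 2.76 (SD, n = 4) with follistatin, and at 4.61% ± 1.99 and 4.34% ± 1.71 in the later set. Psmb9 stood at 4.46% ± 0.74 of Psmb6 in the day 3 controls and at 2.82% ± 0.56 with follistatin, with ranges of 3.96% to 5.31% and 2.27% to 3.60% that did not overlap. Its later shares were 3.17% ± 1.24 and 3.26% ± 2.01, and the ranges overlapped. Psmb10 stood at 2.68% ± 0.205 of Psmb7 in the day 3 controls and at 2.44% ± 0.283 with follistatin, and at 2.25% ± 0.36 and 2.73% ± 0.76 in the later set. Psme2 stood at 54.6% ± 10.4 of Psme1 in the day 3 controls and at 70.3% ± 8.65 with follistatin. These day 3 ranges, 44.3% to 65.0% and 62.3% to 78.0%, overlapped. The later shares of Psme2 were 55.4% ± 8.15 and 72.7% ± 5.15, with ranges of 47.3% to 63.6% and 68.3% to 79.7% that did not overlap, also in the library that stands apart. These ratios are descriptions and were not tested.

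**Figure D2:**
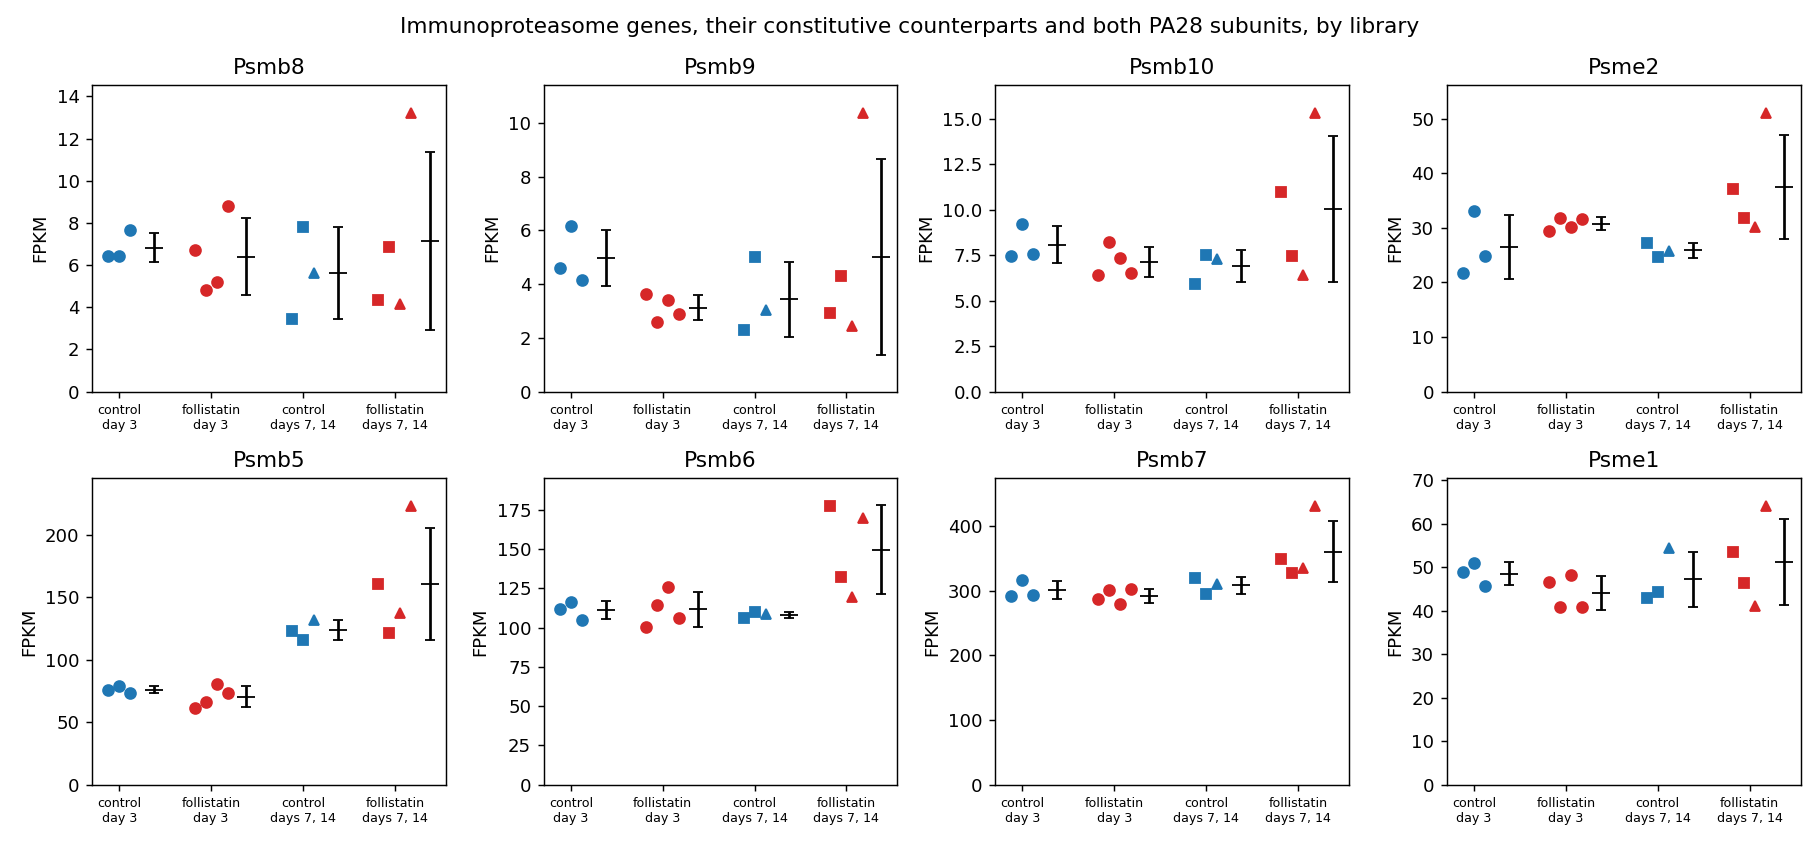
FPKM of the 3 inducible core subunits and Psme2 (top row) and of Psmb5, Psmb6, Psmb7 and Psme1 (bottom row) in each library. Blue points are controls, red points follistatin, circles day 3, squares day 7 and triangles day 14, and black bars are the mean and SD of each group. The highest red triangle, follistatin day 14 replicate 2, is the top point in 7 of the 8 panels, all but that of Psmb6.

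The ATPases form the ring of the base that sits on the barrel. Of the 6 ATPase genes, 3 had a log2 fold change above 0 at day 3, from -0.13 for Psmc3 to 0.06 for Psmc5, and 5 of 6 were above 0 in the later set, with a median of 0.16 and a highest value of 0.24 for Psmc1. Without follistatin day 14 replicate 2 the later median was 0.09 and Psmc1 was at 0.15. Psmc3 shares 215 exon bases with Slc39a13 on the other strand. None of the 6 had an unadjusted p under 0.05 in either set.

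The 3 other base genes are the scaffold genes Psmd1 and Psmd2 and the ubiquitin receptor gene Psmd4. All 3 were lower in all 4 day 3 follistatin libraries than in all 3 controls, as were 6.8% of all genes tested. Psmd4, at chr3:95032694-95042614, was at 117, 117 and 115 FPKM in these controls and at 96.7, 94.7, 105 and 92.3 with follistatin. Its log2 fold change was -0.26 ± 0.06 (SE) with an unadjusted p of 0.00318 and a limma adjusted p of 0.101, the smallest of the 47 genes at day 3. In the authors' deposited table its day 3 log2 fold change is -0.30 with a q of 0.0681. Later Psmd4 levels were 93.0, 91.9 and 104 FPKM in controls and 108, 89.5, 100.1 and 132 with follistatin, and these groups overlapped, with a log2 fold change of 0.14 ± 0.15 (limma, adjusted p = 0.533) that was 0.04 without follistatin day 14 replicate 2. Psmd1 and Psmd2 had day 3 log2 fold changes of -0.13 ± 0.06 (SE) and -0.14 ± 0.06 (limma, adjusted p = 0.362 and 0.291). That of Psmd2 was -0.12 ± 0.10 in the later set (limma, adjusted p = 0.457). Psmd1 shares 301 exon bases with Gm21972 on the same strand and 252 with Htr2b on the other.

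Of the 8 lid genes, 4 had a log2 fold change above 0 at day 3 and 8 of 8 in the later set, where they ranged from 0.00 to 0.57 with a median of 0.19. Without follistatin day 14 replicate 2, 7 of 8 were above 0 with a median of 0.11. Psmd6, at chr14:14112174-14120984, was at 112, 114 and 129 FPKM in the day 3 controls and at 151, 135, 139 and 133 in the follistatin libraries. Later controls read 124, 124 and 119 FPKM, and follistatin libraries read 143 and 169 at day 7 and 154 and 163 at day 14. Psmd6 was the one proteasome gene whose follistatin libraries were all above all controls in both sets. Of all genes, 8.31% were so at day 3 and 8.96% later, and the share in both sets was not computed. The log2 fold change of Psmd6 was 0.23 ± 0.08 (SE) at day 3 and 0.36 ± 0.10 in the later set (limma, adjusted p = 0.194 and 0.0772). Of the alternatives run, 2 brought its later value past the threshold, rescaling by the median ratio (0.47, limma adjusted p = 0.0385) and leaving out follistatin day 7 replicate 1 (0.40, limma adjusted p = 0.0422). Of all genes, 628 of 11047 were called after that rescaling and 907 of 11057 without that library.

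Psmd8, a lid gene at chr7:29174188-29180701, was at 118, 119.7 and 134 FPKM in the day 3 controls and at 137, 123, 128 and 149 in the follistatin libraries. Its later controls were at 109, 114 and 120.2 FPKM and its follistatin libraries at 158 and 139.7 at day 7 and at 169 and 226 at day 14. The day 3 groups overlapped and the later ones did not. The log2 fold change was 0.11 ± 0.08 (SE) at day 3 and 0.57 ± 0.16 in the later set (limma, adjusted p = 0.589 and 0.0794), and the later value was 0.44 to 0.67 when each library was left out in turn. In the authors' deposited table its later log2 fold change is 0.59 with a q of 0.00675. Psmd14, the lid enzyme that removes ubiquitin, was at 43.4, 46.9 and 41.3 FPKM in the later controls and at 47.9, 63.0, 52.5 and 56.0 with follistatin, groups that did not overlap (log2 fold change 0.31 ± 0.12, limma adjusted p = 0.142). Psmd7, its partner in the lid, had a day 3 log2 fold change of -0.14 ± 0.06 (limma, adjusted p = 0.311).

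Assembly chaperones help the barrel and the base come together and are not part of the finished particle. Their control levels were low, from 6.73 FPKM for Psmg3, which shares 280 exon bases with Gm26938, to 18.4 for Psmg2 at day 3. At day 3, 5 of 7 had a log2 fold change above 0 with a median of 0.03, and in the later set 7 of 7 with a median of 0.24. All 7 were highest in follistatin day 14 replicate 2, and without it 7 of 7 were still above 0 with a median of 0.15. Psmg1 was at 9.74, 10.3 and 11.4 FPKM in the later controls and at 12.7, 12.5, 12.04 and 17.8 with follistatin, groups that did not overlap (log2 fold change 0.35 ± 0.15, limma adjusted p = 0.167, and 0.23 without that library). Psmd5, a chaperone of the base, had a later log2 fold change of 0.32 ± 0.16 (limma, adjusted p = 0.225). It became 0.45 with a limma adjusted p of 0.0497 without follistatin day 7 replicate 1, where 907 of 11057 genes were called.

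Of the 3 other regulators, 1 had a log2 fold change above 0 at day 3 and 0 had one later, with medians of -0.25 and -0.23, and -0.22 later without follistatin day 14 replicate 2. Psme4, the gene of the activator PA200 at chr11:30771726-30880361, was at 119, 109.7 and 119 FPKM in the day 3 controls and at 110.3, 89.1, 82.8 and 96.8 in the follistatin libraries. Psme4 controls read 104 and 107 FPKM at day 7 and 88.5 at day 14, and follistatin libraries 50.9 and 79.0 at day 7 and 75.7 and 60.1 at day 14. One day 3 follistatin library lay within the control range, and all later follistatin libraries were below all controls. The log2 fold change was -0.30 ± 0.10 (SE) at day 3 and -0.60 ± 0.17 in the later set, the lowest of the 47 genes there (limma, adjusted p = 0.207 and 0.0797). In the authors' deposited table Psme4 has a log2 fold change of -0.33 with a q of 0.0271 at day 3 and of -0.61 with a q of 0.00718 in the later set. Leaving out each library in turn gave later values from -0.69 to -0.48, and follistatin day 14 replicate 2, where most proteasome genes were highest, lay at 60.1 FPKM, below all controls.

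Psmf1, the gene of the proteasome inhibitor PI31, was at 4.97, 5.95 and 5.40 FPKM in the day 3 controls and at 5.40, 4.15, 4.43 and 3.81 with follistatin. Its later levels were 5.18, 4.78 and 4.91 FPKM in controls and 4.65, 4.11, 3.67 and 3.95 with follistatin. The day 3 groups overlapped through 1 follistatin library and the later ones did not overlap, with log2 fold changes of -0.25 ± 0.12 (SE) and -0.23 ± 0.10 (limma, adjusted p = 0.382 and 0.17). Psmc3ip is a member by its symbol alone, since its product acts in meiotic recombination. It was at 1.37 ± 0.54 FPKM (SD, n = 3) in the day 3 controls and at 2.19 ± 0.659 (SD, n = 4) with follistatin, groups that overlapped (log2 fold change 0.43 ± 0.21, limma adjusted p = 0.391), and it shares 385 exon bases with Mlx on the other strand.

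**Figure D3:**
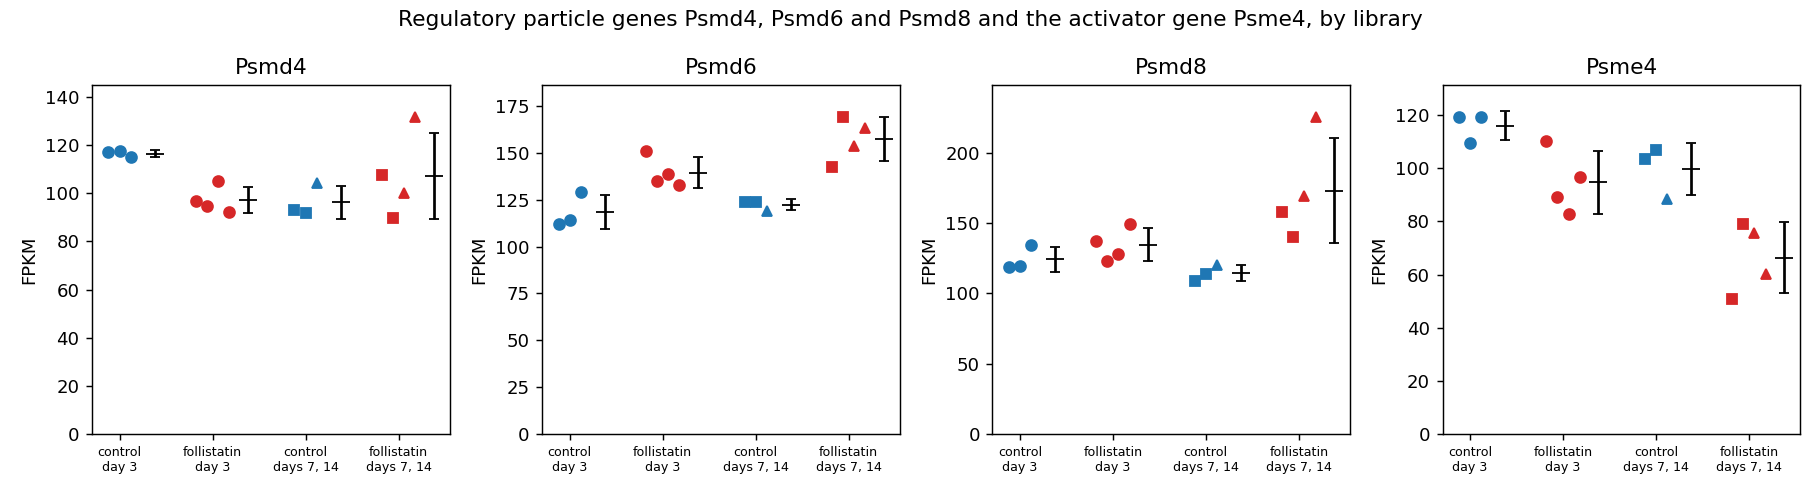
FPKM of the base gene Psmd4, the lid genes Psmd6 and Psmd8 and the activator gene Psme4 in each library. Blue points are controls, red points follistatin, circles day 3, squares day 7 and triangles day 14, and black bars are the mean and SD of each group. Psmd4 with follistatin lies between 92.3 and 105 FPKM at day 3, below its controls, and Psme4 with follistatin lies between 50.9 and 79.0 FPKM in the later set, below its controls.

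Whether the effect of follistatin differed between the sets was tested with a limma interaction term (later effect minus day 3 effect, 14 libraries). Of 47 proteasome genes, 0 were called, against 0.0752% of 10643 genes. At an unadjusted limma p under 0.05 there were 3, Psmb6, Psmd4 and Psmd8, with differences of 0.44 ± 0.18 (SE), 0.40 ± 0.16 and 0.46 ± 0.19 on the log2 scale, and of 0.37, 0.30 and 0.33 without follistatin day 14 replicate 2. All 3 were above 0, against 3.04% of all genes above 0 at that p. Without control day 7 replicate 1 there were 0 at that p, without either day 7 follistatin library 8, and without follistatin day 14 replicate 1 there were 7. For these fits the share of all genes at that p was not computed. The smallest limma adjusted p was 0.272, for Psmd4. Of the 47 differences, 43 were above 0, against 35.2% of all genes, and their median was 0.22, against -0.11 for all genes. Without follistatin day 14 replicate 2 the median was 0.10 and 38 of 47 were above 0.

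The weight of single libraries was then read from each library's median deviation from the control mean of its set. Later, the median over the 47 genes was 0.15, 0.08 and 0.06 in follistatin day 7 replicate 1, day 7 replicate 2 and day 14 replicate 1, and 0.47 in day 14 replicate 2. The 3 later controls lay between -0.02 and 0.01. All 4 follistatin libraries were above the controls, and the last was more than any other. For the core genes the last library stood at 0.56 and the other 3 follistatin libraries at 0.08 to 0.16. For the immunoproteasome genes it stood at 1.05 and the others at -0.19 to 0.29, a span that overlapped the controls at -0.19 to 0.11. In that library the 19 listed antigen processing and interferon response genes summed to 491 FPKM, against 187 to 321 in the other 3. The controls summed to 220 and 240 FPKM, and to 393 in control day 7 replicate 2. The largest values in the sum of 491 FPKM were B2m at 237 FPKM, H2-K1 at 82.9 and H2-D1 at 72.1. By gene, 4 of the 17 tested had a later log2 fold change above 0, against 39.2% of all genes, and the median was -0.08. With follistatin day 14 replicate 2 left out, 0 of 18 tested were above 0, against 37.4% of all genes, and the median was -0.28. The sign turned with other libraries. Without control day 7 replicate 2, 13 of 17 were above 0, against 39.9% of all genes, and the median was 0.09. Without follistatin day 14 replicate 1, 12 of 18 were above 0, against 40.5% of all genes, and the median was 0.08. Of the leukocyte markers, 16 of 16 tested had a later log2 fold change above 0 with a median of 0.65 and 0 were called. Without follistatin day 14 replicate 2, 14 of 15 tested were above 0 and the median was 0.29. The markers Cd3e, Cd8a and Cd79a were under 1 FPKM in every library. The part of leukocytes in the proteasome values was not tested. Without follistatin day 14 replicate 2 the later median of the 47 genes was 0.08, with 36 of 47 above 0, and 0 were called.

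**Figure D4:**
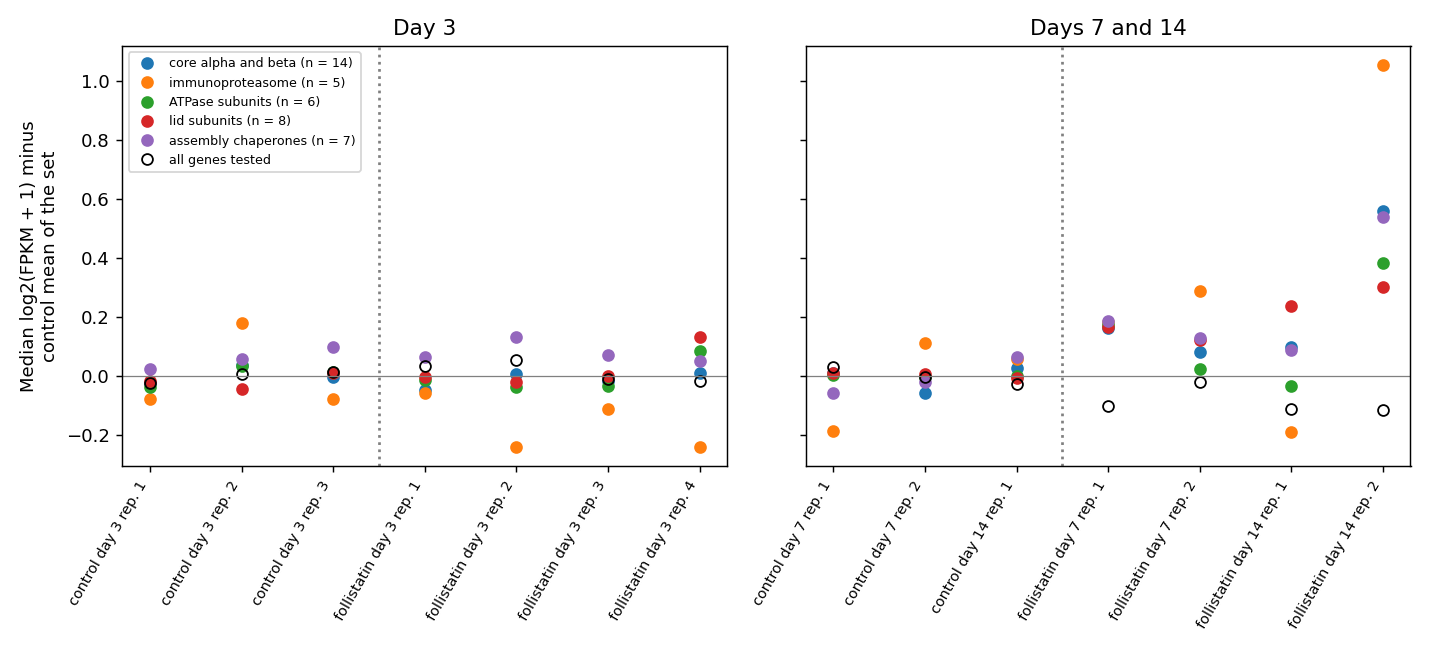
Median over the genes of a role of log2(FPKM + 1) minus the control mean of the set, for each library at day 3 (left) and at days 7 and 14 (right). Filled points are the core, immunoproteasome, ATPase, lid and assembly chaperone genes. Open circles are all genes tested, and the dotted line divides controls from follistatin. In follistatin day 14 replicate 2 the immunoproteasome genes stand at 1.05 and the core genes at 0.56, while all genes stand at -0.12. The other base genes and the other regulators are not drawn and stand at 0.03 and -0.27 in that library.

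Partners of the proteasome outside these symbols were read from lists that include its assembly factor Pomp, its shuttle proteins and the transcription factors Nfe2l1 and Nfe2l2. At day 3, 0 of 25 rose and 0 fell. Later, 0 of 25 rose, 2 fell and 23 did not pass, where 5.5% of all genes tested were called in either direction. The genes that fell were Nfe2l2, which drives genes of the oxidative stress response, from 18.7 ± 1.52 FPKM (SD, n = 3) to 12.9 ± 0.733 (SD, n = 4), and the shuttle gene Ubqln2, from 7.38 ± 0.461 to 4.87 ± 0.731. Their log2 fold changes were -0.50 and -0.52 (limma, adjusted p = 0.0328 and 0.048). Neither call held when any one of the later controls was left out (limma, adjusted p of 0.0922 to 0.183 for Nfe2l2 and of 0.127 to 0.213 for Ubqln2), nor without follistatin day 7 replicate 2 (0.0584 and 0.0731) or follistatin day 14 replicate 1 (0.058 and 0.0541). Without follistatin day 14 replicate 2 the call of Nfe2l2 held (0.0425) and that of Ubqln2 did not (0.0741), and without follistatin day 7 replicate 1 both held. Nfe2l1, which is known to raise proteasome genes when the proteasome is impaired, had log2 fold changes of -0.11 at day 3 and -0.23 in the later set (limma, adjusted p = 0.6 and 0.178). Pomp had values of -0.06 and 0.50 (limma, adjusted p = 0.837 and 0.217), and the later value was 0.27 without follistatin day 14 replicate 2, where it stood at 270.2 FPKM against 126 to 152 in the other later follistatin libraries.

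Of the ubiquitin genes and the enzymes that activate ubiquitin, 0 of 6 at day 3 and 0 of 5 in the later set were called. Of the antigen processing and interferon response genes, 0 of 18 and 0 of 17 were called. Their median log2 fold change was -0.08 in both sets, and 6 of 18 and 4 of 17 were above 0. The later median ran from -0.28 to 0.09 when each library was left out in turn. Tap1, 1 of the 4 above 0 later, had log2 fold changes of -0.24 and 0.28 (limma, adjusted p = 0.529 and 0.681). Its later value was -0.06 without follistatin day 14 replicate 2. Endothelial markers had a median log2 fold change of -0.19 at day 3, where 0 of 12 were above 0, and of -0.54 in the later set, where 1 of 12, Tek, fell, against the same 5.5% of all genes called. Without follistatin day 14 replicate 2 the endothelial calls were Flt1 and Tek, without follistatin day 7 replicate 1 Egfl7, Esam and Tie1, and there were 0 when any one of the later controls or follistatin day 14 replicate 1 was left out. Fibroblast markers had medians of -0.24 and -0.25, with 0 of 11 called in either set. Their later median ran from -0.41 without control day 14 replicate 1 to -0.02 without control day 7 replicate 2. Of the muscle fibre markers, 0 of 9 were called at day 3, and 1 of the 2 that could be tested in the later set, Ryr1, fell, a call that held without follistatin day 7 replicate 1 and was lost when any other library of that set was left out.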

How the data were processed

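RNA of 14 libraries was measured with an Illumina TruSeq kit, per the labels. The authors aligned reads with TopHat to mm10 and computed FPKM with Cuffdiff, per the submitters' processing notes; versions, annotation, strand and counting mode are not given in the sources used here. The deposited tables of the authors' Cuffdiff test hold log2 fold changes, p-values and q-values. Of 24386 genes per file, 27 with date-like symbols were left out and 24359 used. Genes marked HIDATA (too many reads; 4 at day 3, 31 in the later set) were not tested. Each set was fitted with limma 3.58.1 in R 4.3.3 (lmFit, eBayes with trend) on log2(FPKM + 1), two-sided, where a gene's mean reached 1 FPKM, adjusted over all genes. The added 1 makes fold changes of low genes smaller. The pipeline was tested on simulated data. Members and lists were chosen with earlier results of these data known. Libraries are named for every immunoproteasome gene and Psmb5, Psmb6 and Psmb7 by rule; otherwise the extremes of each role were named, and Psmd4, Psmd6, Psmd8, Psme4, Psma4, Psmd14, Psmg1, Psmf1, Psmd2, Psmd5 and Psmc3ip were named after their values were seen. Positions and exon overlaps are from GENCODE M21 on GRCm38 (mm10), where all 50 genes matched. Alternatives were another pseudocount (0.1), filter (none, or a mean of 5 FPKM), scaling, robust eBayes, replicate block, day terms and leaving out each library; leaving out 1287 small RNA genes was added after the data were seen. Relative depth came from the steps between values under 0.5 FPKM, where 79.2% to 83.8% of day 3 values lay on a step within 0.02 on the log2 scale; later libraries gave too few to use.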

Additional observations from a re-analysis of the deposited data

Results flagged for a closer look

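Among 45 pairs of a named proteasome gene and a group of 4 follistatin libraries, 2 had a library that stood far from the others. Both were in follistatin day 14 replicate 2, where Psmg1, an assembly chaperone gene, was at 17.8 FPKM against 12.04 to 12.7 in the other 3, and Psmc1, an ATPase gene, was at 139 FPKM against 104 to 109.6. The gap to the nearest library was 0.885 and 0.831 of the group's whole range, above Dixon's 95% critical value for 4 samples. Chance flags about 1 in 20 such groups.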

How the results depend on the processing

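Calls of proteasome genes stayed at 0 at day 3 and for the difference between the sets under every alternative run. In the later set 1 of 47 was called with median ratio rescaling, where 628 of 11047 genes were called. The later calls ranged from 0 to 2 when each library was left out. The 2 were reached without follistatin day 7 replicate 1, where 907 of 11057 genes were called. The median log2 change ranged from -0.031 to -0.0071 at day 3 and from 0.08 to 0.25 in the later set when each library was left out. The day 3 value of Psmb6 was -0.0089 with median ratio rescaling and -0.018 with quantile normalization, and from -0.052 to 0.056 when each library was left out, below 0 without control replicate 3, follistatin replicate 2 or follistatin replicate 3. Over the same omissions the later values ran from -0.041 to 0.17 for Psma7, from -0.087 to 0.46 for Psmb8, from -0.049 to 0.55 for Psmb9 and from -0.0067 to 0.21 for Psme1, each lowest without follistatin day 14 replicate 2; Psmb8 was also below 0, at -0.036, without control day 7 replicate 1. The replicate block gave those same lowest values of -0.041, -0.087, -0.049 and -0.0067, since it leaves out that library, which has no control of its number. Under the block the median was -0.03 at day 3 and 0.08 later, and 0 genes were called in either set or between them. At an unadjusted p under 0.05, the later higher count of 7 became 15 with median ratio rescaling, 13 with quantile normalization, 4 under the block and 3 with the day 7 libraries alone, and the difference count of 3 became 13, 10 and 1 under the first 3 of these. Under the block the day 3 counts of 1 higher and 6 lower became 2 and 3. The share of all genes at that p was not computed under these settings, so these counts are not set against all genes. The refits of the partner and marker lists without each library were added after the data were seen. Numbers were not taken to pair libraries, as the labels give no pairing. Same-numbered libraries had correlations of -0.06 to -0.03 at day 3, where the others had -0.07 to 0.09. Later same-numbered libraries had 0.02 to 0.11, where the others had -0.12 to 0.03. The later values do not settle whether numbers pair libraries. Of the other values of single genes, 697 kept direction and side of the threshold. The number of libraries limits precision, and reads per gene are not known.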
